A study of Rattus norvegicus with 8 samples.

Results

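Red cell transcripts were examined in RNA from the small intestine of rats with cystic fibrosis (CF) and of wild-type (WT) rats. The set consists of 4 genes: Hba-a2 and Hbb, which encode the alpha and beta chains of adult hemoglobin, Alas2, the red cell form of the first enzyme of heme synthesis, and Slc4a1, the band 3 anion exchanger of the red cell membrane. They were taken by exact symbol from the deposited gene table, which gave 5 loci of 52753, since 2 loci carry the symbol Hba-a2. The CF group holds 4 libraries from Sprague Dawley rats at postnatal day 21 labelled with cystic fibrosis, and the WT group holds 4 libraries from Sprague Dawley rats of the same age labelled wild type. Neither the CF allele nor the sex of the rats is given in the sources used here. The whole length of the small intestine was extracted after its lumen had been washed. The labels' protocol mentions no perfusion of the vessels. The labels do not say if libraries are from separate animals, and p-values therefore describe the spread between these libraries.

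Hemoglobin is a tetramer of alpha and beta chains, each of which binds a heme. Its genes are switched on late in red cell development, when Alas2 supplies heme and band 3 is placed in the membrane, where it exchanges chloride for bicarbonate. After the nucleus is lost, the young cells that enter the blood, the reticulocytes, still carry globin messenger RNA. Such cells are carried in the blood that any unperfused tissue holds. In bulk RNA, fewer cells of a type and less RNA per cell cannot be told apart.

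The upstream sequence of the globin genes is shown first because the globin loci carried the larger part of the red cell signal. RefSeq windows on build GRCr8, which is not the build of the gene table, matched Hba-a2, Hbb and Alas2 of the 4 members by symbol. The 170 bases before the annotated start are printed for Hba-a2 (chr10:15829139-15829308, minus strand), for its neighbour Hba-a3 (chr10:15816944-15817113, minus strand) and for Hbb (chr1:167663722-167663891, minus strand). Capitals mark the 4 motifs that were searched on both strands: the GATA word (GATA with A or T before it and A or G after it), a CACCC-type box (CCNCNCCC), the CCAAT box and the TATA-like word ATAAA.
Hba-a2: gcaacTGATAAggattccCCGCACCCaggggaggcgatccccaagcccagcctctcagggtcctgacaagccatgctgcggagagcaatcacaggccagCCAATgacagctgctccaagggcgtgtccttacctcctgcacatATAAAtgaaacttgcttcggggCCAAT
Hba-a3: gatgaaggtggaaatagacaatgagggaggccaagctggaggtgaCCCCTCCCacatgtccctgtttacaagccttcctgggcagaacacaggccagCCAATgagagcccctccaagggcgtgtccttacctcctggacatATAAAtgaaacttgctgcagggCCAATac
Hbb: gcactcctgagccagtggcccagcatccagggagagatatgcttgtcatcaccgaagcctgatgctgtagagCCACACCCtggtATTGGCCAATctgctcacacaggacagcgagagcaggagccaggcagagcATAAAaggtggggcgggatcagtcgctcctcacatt

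The 2 alpha windows were alike, with 129 identical bases among 160 aligned pairs. Each of the 3 printed windows held a CACCC-type box, a CCAAT box and ATAAA, and the window under the symbol Hba-a2 held a GATA word as well. The Alas2 window held a GATA word and none of the other motifs. It was not printed because its last bases read like the end of an intron. In the gene table the Hba-a2 and Hba-a3 loci carry the same span, so its coordinates give no order to compare with RefSeq. It is thus not known whether the windows under Hba-a2 and Hba-a3 belong to the loci of those symbols. In Hbb the reverse and forward CCAAT words abut without overlap, and no other motifs overlapped. Of 33469 RefSeq promoters, 18.7% held a GATA word in a window of this length, 36.5% the CACCC-type box, 25.9% CCAAT and 28.6% ATAAA. These matches describe letters, not binding.

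Libraries held 18621671 to 20890031 assigned fragments in CF and 15255364 to 20812425 in WT. Of 16941 loci with enough fragments to be tested, 28 passed edgeR's quasi-likelihood test at a Benjamini-Hochberg adjusted p of 0.05, with 23 higher and 5 lower in CF. The 5 lower loci are 0.0295% of those tested, and 50.8% of tested loci had a lower mean in CF. The median log2 fold change (CF over WT) of all tested loci was −0.005. CF libraries 0 and 3 stood apart from the others on the first principal component of log2 CPM, at −56.9 and −43.6, against 4.12 and 8.48 for CF libraries 1 and 2 and 18.9 to 28.6 for the WT libraries. Epithelial genes marked the tissue as intestine in every library: the 9 found of 10 listed (among them Vil1, Cdx2, Fabp2 and Lct) summed to 6470 to 18129 CPM in CF libraries, against 9252 to 15933 CPM in WT. CPM are assigned fragments scaled to a common library size, after TMM scaling between libraries. In the main test, library numbers 0 to 3 are used only as names.

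All 4 genes had lower levels in every CF library than in any WT library, but 1 of them, Hba-a2, passed the test over all loci. Its fall was 2.11-fold. Means of Hbb were 2.89-fold, of Alas2 2.13-fold and of Slc4a1 2.49-fold lower in CF without passing. Among all tested loci, every CF library lay below every WT library in 3.91%. The share with an unadjusted p under 0.05 and a lower mean in CF was 7.21%.

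The alpha chain gene Hba-a2 was counted almost wholly at 1 locus, XLOC_007801 (chromosome 10, 15589363 to 15603649, Rnor_6.0, a span that also covers Hba-a3 and Hbq1b). It had 53.7, 39.9, 51.6 and 40.5 CPM in CF libraries 0 to 3, against 72.8, 118, 102 and 98.3 CPM in WT libraries 0 to 3. The groups did not overlap, and the nearest pair was CF library 0 and WT library 0. Means were 46.4 ± 7.21 CPM in CF libraries, against 97.8 ± 18.7 CPM in WT (SD, n = 4 each). On the log2 scale the fold change was −1.07 with an SE of 0.16 (adjusted p = 0.0339 by edgeR's quasi-likelihood test), and by unadjusted p the locus ranked 19 among those tested. The call did not survive the removal of CF library 1 (adjusted p = 0.0681), CF library 3 (0.116), WT library 1 (0.147), WT library 2 (0.147) or WT library 3 (0.0940). Without CF library 0, which stood apart, it held (log2 fold change −1.15, adjusted p = 0.0198).

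The other locus named Hba-a2, XLOC_006564, has the same span and was close to empty. It held 6.97, 2.03, 0 and 0 estimated fragments in CF libraries 0 to 3, against 10.5, 10.9, 17.9 and 9.99 in WT libraries 0 to 3. The fragments of this locus, of XLOC_007801 and of Hba-a3 were fractional in some libraries, yet their sum was whole to within 0.01 in 8 of 8 libraries, so fragments were divided among these alpha-globin loci. XLOC_006564 passed the low-count filter through its 4 WT libraries and 0 CF libraries. Its lower mean in CF therefore cannot be separated from the way it entered the test. Its log2 fold change of −2.47, with an SE of 0.72 and an adjusted p = 0.169, is given as a description. The other 4 loci of the set were above that filter in 4 CF and 4 WT libraries.

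The beta chain gene Hbb (XLOC_003456, chromosome 1, 168971273 to 168972725) had the widest spread of the set in WT. It had 67.3, 48.0, 49.5 and 52.4 CPM in CF libraries 0 to 3, against 74.1, 226, 182 and 144 CPM in WT libraries 0 to 3. WT library 0 was close to the CF range, while the other 3 WT libraries were at least 2 times as high as every CF library. Means were 54.3 ± 8.86 CPM in CF libraries, against 157 ± 64.4 CPM in WT (SD, n = 4 each). On the log2 scale the fold change was −1.53 with an SE of 0.30 (adjusted p = 0.0809 by edgeR's quasi-likelihood test), not past the threshold. Without WT library 0 it was −1.76 with an adjusted p = 0.00766, and without CF library 0 it was −1.65 with an adjusted p = 0.0848. Removal of CF library 3, which also stood apart, gave −1.51 with an adjusted p = 0.261.

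Alas2 (XLOC_051491, chromosome X, 23167572 to 23192043) was scarce. It had 46, 29, 42 and 35 fragments in CF libraries 0 to 3, against 56, 107, 97 and 50 in WT libraries 0 to 3. On the CPM scale this was 1.96 ± 0.313 in CF and 4.18 ± 0.950 in WT (SD, n = 4 each), and every CF library was below the lowest WT library (2.23 CPM at most in CF, 3.41 CPM at least in WT). On the log2 scale the fold change was −1.09 with an SE of 0.23 (adjusted p = 0.0809 by edgeR's quasi-likelihood test), and without CF library 0 it was −1.16 (adjusted p = 0.0691). Removal of CF library 3 gave −1.04 (adjusted p = 0.261).

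Slc4a1 (XLOC_008605, chromosome 10, 90296140 to 90312386) was scarcer still. It had 13, 13, 17 and 13 fragments in CF libraries 0 to 3, against 19, 35, 60 and 22 in WT libraries 0 to 3. WT library 2 was the highest, and the CF libraries lay close together. The level was 0.728 ± 0.126 CPM in CF libraries, against 1.80 ± 0.705 CPM in WT (SD, n = 4 each). On the log2 scale the fold change was −1.31 with an SE of 0.32 (adjusted p = 0.118 by edgeR's quasi-likelihood test), −1.02 without WT library 2 (adjusted p = 0.293) and −1.25 without CF library 0 (adjusted p = 0.144). Removal of CF library 3 gave −1.26 (adjusted p = 0.347). At 13 to 60 fragments per library, its relative counting error is the largest of the 4 genes.

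**Figure D1:**
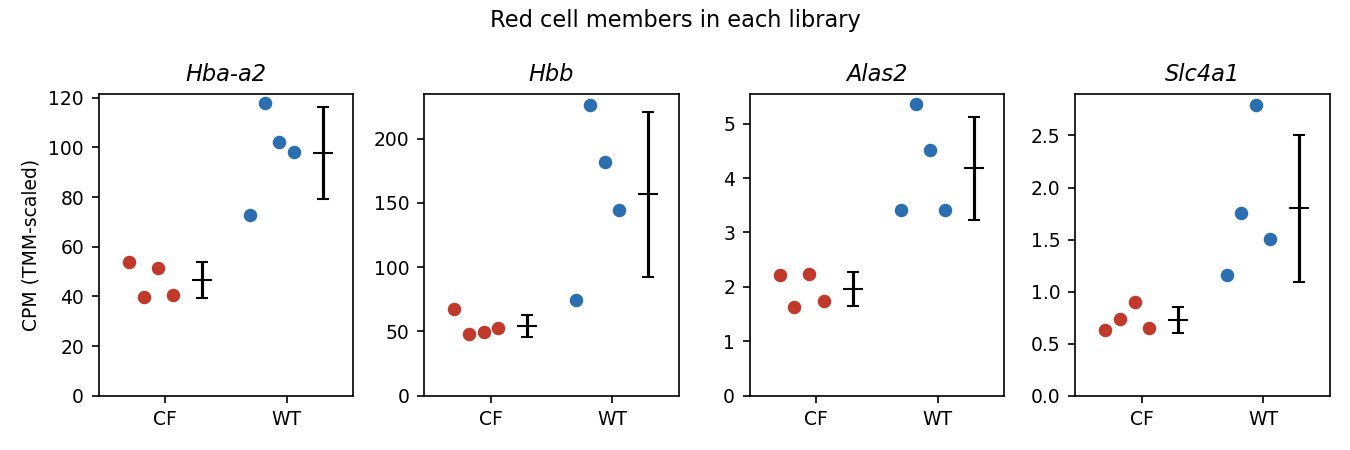
CPM (TMM-scaled, linear axis from 0) of Hba-a2 (XLOC_007801), Hbb, Alas2 and Slc4a1. Points are libraries 0 to 3 from left to right within CF and within WT, and the black mark is the mean with its SD (n = 4). In each panel the 4 CF points lie below the 4 WT points, with WT library 0 the nearest to them, level with WT library 3 for Alas2 (both 3.41 CPM).

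On the authors' FPKM values, which are per transcript length and so can be compared between genes, the order in WT was Hbb (239 ± 78.5), Hba-a2 (189 ± 34.0), Alas2 (1.99 ± 0.305) and Slc4a1 (0.330 ± 0.123; FPKM, SD, n = 4 each). In CF it was Hba-a2 (95.6 ± 36.5), Hbb (86.5 ± 34.1), Alas2 (0.943 ± 0.293) and Slc4a1 (0.132 ± 0.0321). Hba-a2 and Hbb did not differ beyond their spread in either group, while the steps to Alas2 and to Slc4a1 exceeded it. The group values in the authors' deposited table equal these means. The groups did not overlap in FPKM either: the highest CF and the lowest WT library were at 133 and 158 FPKM for Hba-a2, and at 136 and 145 FPKM for Hbb. They were at 1.24 and 1.64 FPKM for Alas2, and at 0.171 and 0.238 FPKM for Slc4a1. Relative to the mean, FPKM spread more within CF than CPM did for each of the 4 genes. The CPM of Hba-a2 was 0.403 to 0.728 times its FPKM in CF libraries and 0.444 to 0.601 times in WT libraries. On log2(FPKM + 1) Hba-a2 had a log2 fold change of −1.04 and an adjusted p of 0.192 with limma.

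The 4 genes were compared with each other through the log2 ratio of their FPKM in each library, by two-sided exact permutation over the 8 libraries, which can reach 0.0286 at the lowest. Of 6 ratios none passed, and the p adjusted over the 6 was 0.583 or more for each, which does not show that the genes moved by equal amounts. The widest difference was in Hba-a2 over Hbb, with a log2 ratio of 0.13 ± 0.36 in CF and −0.29 ± 0.36 in WT (SD, n = 4 each, exact permutation p = 0.200). The narrowest was in Hba-a2 over Alas2, with 6.63 ± 0.137 in CF and 6.57 ± 0.111 in WT (exact permutation p = 0.457). Of the 6 ratios this one varied least from library to library. Over the 8 libraries, which share the group difference, Pearson's r of log2 CPM was 0.88 to 0.98 over the 6 pairs. After each group's mean was subtracted it was 0.74 to 0.86 among Hba-a2, Hbb and Alas2, and 0.50 to 0.55 between these and Slc4a1.

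The other adult globin loci also had lower means in CF, and the embryonic ones were not detected. Of 14 globin loci 7 were tested, of which 3 are the loci of Hba-a2 and Hbb. The other 4, Hba-a3, Hba-a1 and a pair of loci near Hbb, had log2 fold changes of −0.82 to −0.45, and none of them passed. The alpha gene Hba-a3 (XLOC_007803) was the most abundant globin, with 146, 106, 152 and 121 CPM in CF libraries 0 to 3, against 194, 287, 238 and 209 CPM in WT libraries 0 to 3. Every CF library was below every WT library, as in 3.91% of all tested loci. The log2 fold change, −0.82 with an SE of 0.16, did not pass (adjusted p = 0.0689, edgeR). Hba-a1, a further alpha copy, was at 1.12 ± 1.17 CPM in CF libraries, against 1.95 ± 0.887 CPM in WT, and the groups overlapped. The theta-like Hbq1b had 2 fragments in all CF libraries together and 6 in all WT libraries together. Hbe1, Hbe2, Hbg1 and Hbz, named after embryonic and fetal globins, had 0 fragments in all 8 libraries, as had LOC689064 and LOC103694855.

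At the beta cluster, libraries differed in which locus took the fragments. Apart from Hbb, fragments were counted at LOC100134871, whose gene ID RefSeq pairs with the beta-like gene Hbbl1, and at LOC103694857. Both lie beside Hbb on chromosome 1 (168945448 to 168965566). LOC103694857 is counted with the beta loci here by that position alone. LOC100134871 had 9.07, 7.28, 18.8 and 7.83 CPM in CF libraries 0 to 3, against 27.0, 6.82, 5.49 and 19.7 CPM in WT libraries 0 to 3. It was high in CF library 2 and in WT libraries 0 and 3, and the groups overlapped (log2 fold change −0.45, SE 0.56, adjusted p = 0.750). LOC103694857 was at 11.3 ± 3.10 CPM in CF libraries, against 18.1 ± 5.63 CPM in WT (adjusted p = 0.258). Hbb took 77.5%, 75.0%, 58.8% and 74.3% of the fragments at the 3 beta loci in CF libraries 0 to 3, against 59.5%, 90.9%, 91.5% and 77.6% in WT libraries 0 to 3. The lowest shares were thus in 1 CF and 1 WT library, and the 2 highest in WT. Hba-a3 took 72.1% to 74.6% of alpha fragments in CF and 67.3% to 71.7% in WT. The cause of the uneven split was not tested.

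Summed over copies, both chains were lower in CF. The 3 beta loci together had 86.8, 63.9, 84.1 and 70.5 CPM in CF libraries 0 to 3, against 124, 249, 199 and 186 CPM in WT libraries 0 to 3. WT library 0 was still the lowest of its group, but lay further from the CF range than for Hbb alone. With the copies of each chain joined before the fit, the beta sum was lower by a log2 fold change of −1.31 (SE 0.19), which passed (adjusted p = 0.0343, edgeR). The 4 alpha loci together had 203, 146, 205 and 162 CPM in CF libraries 0 to 3, against 270, 407, 342 and 310 CPM in WT libraries 0 to 3. For the alpha sum the value was −0.89 (SE 0.16), which did not pass (adjusted p = 0.0587). The alpha loci summed to 2.66 to 3.77 times the FPKM of the beta loci in CF libraries and 1.83 to 2.81 times in WT libraries. All 7 alpha and beta loci together took 0.0191% to 0.0293% of assigned fragments in CF and 0.0425% to 0.0680% in WT.

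**Figure D2:**
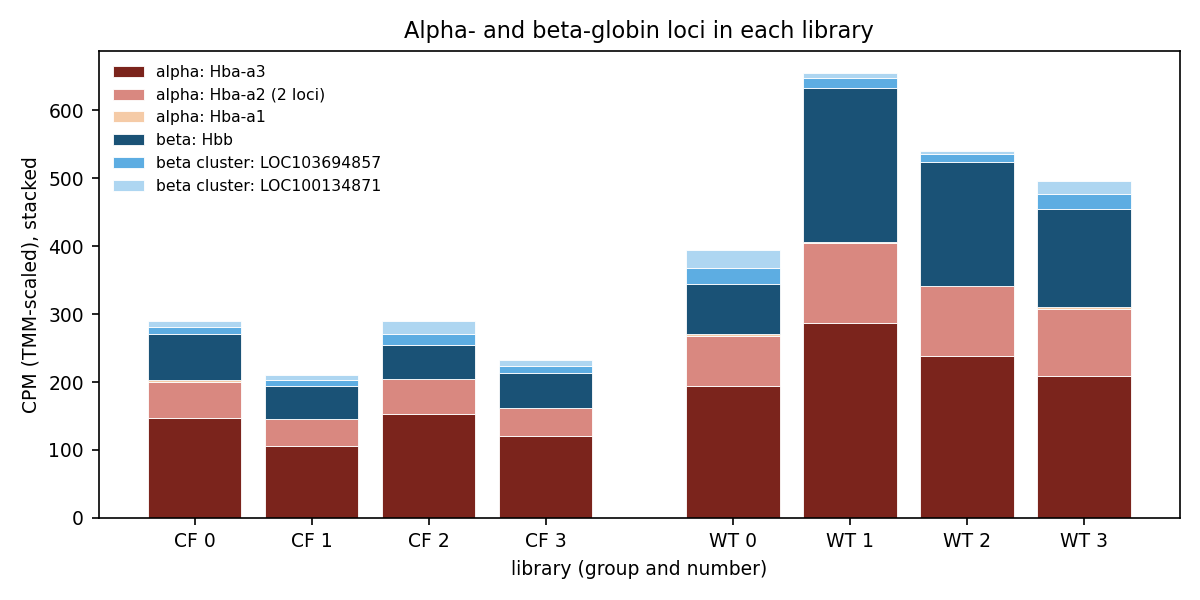
CPM (TMM-scaled) of the alpha- and beta-globin loci, stacked for each library, with the 4 CF libraries on the left and the 4 WT libraries on the right. The total reached 210 to 290.0 CPM in CF libraries, against 395 to 655 CPM in WT, and the 2 paler blue loci of the beta cluster were widest in WT libraries 0 and 3 and CF library 2.

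Genes of heme synthesis other than Alas2 had means on both sides. Of 17 genes listed, 16 loci were tested, 9 with higher and 7 with lower means in CF. None passed the edgeR test, while 3 had an unadjusted p under 0.05, 2 higher and 1 lower in CF. Over all 16941 tested loci, 2566 had such a p. The median log2 fold change of the 16 loci was 0.03. Alas1, the form of the enzyme that serves tissues in general, was the most abundant, at 184 ± 40.2 CPM in CF libraries, against 135 ± 14.0 CPM in WT (log2 fold change 0.45, SE 0.16, adjusted p = 0.233). The mitochondrial carrier gene Slc25a39 had 130 ± 12.8 CPM in CF libraries, against 109 ± 8.95 CPM in WT (log2 fold change 0.25, adjusted p = 0.302). Uros, which closes the porphyrin ring, had 5.27 ± 0.901 CPM in CF libraries, against 6.88 ± 0.556 CPM in WT, without overlap between the groups (log2 fold change −0.39, adjusted p = 0.317). Among all tested loci, 3.91% lay lower in CF without overlap.

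Of 19 red cell membrane and skeleton genes listed, 8 loci were tested, 4 with higher and 4 with lower means in CF, and none passed. At an unadjusted p under 0.05 there were 2, of which 1 was higher and 1 lower in CF, beside 2566 of all 16941 tested loci. Dmtn, which encodes dematin, an actin-bundling protein of the red cell skeleton, was at 4.74 ± 0.975 CPM in CF libraries, against 9.16 ± 2.04 CPM in WT, again without overlap (log2 fold change −0.95, SE 0.21, adjusted p = 0.0979). Such a lack of overlap, with CF lower, was found in 3.91% of all tested loci. The adducin gene Add2 had 2.88 ± 0.357 CPM in CF libraries, against 3.99 ± 1.40 CPM in WT (log2 fold change −0.47, adjusted p = 0.417). Slc14a1, a urea transporter, had 3.89 ± 2.37 CPM in CF libraries, against 1.98 ± 0.629 CPM in WT (log2 fold change 0.96, adjusted p = 0.308). The water channel gene Aqp1, which vessels also express, was at 145 ± 40.3 CPM in CF libraries, against 137 ± 38.5 CPM in WT. Rhag, of the Rh complex of the red cell membrane, was barely counted, with 1 fragment in CF and 0 in WT over all libraries.

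Red cell transcription factors were scarce or did not pass. Gata1, the master regulator of red cell genes, had 0 fragments in CF and 1 in WT over all libraries. Klf1, which binds CACCC boxes in globin genes, had 63 fragments over the CF libraries and 42 over the WT libraries (log2 fold change 0.46, adjusted p = 0.524). Of 10 listed factors 8 were tested, 2 with higher and 6 with lower means in CF. None passed edgeR's test, and 0 had an unadjusted p under 0.05. Gfi1b had 0.641 ± 0.179 CPM in CF libraries, against 0.997 ± 0.258 CPM in WT (adjusted p = 0.400). Tal1, which endothelium also expresses, had 2.40 ± 0.400 CPM in CF libraries, against 3.19 ± 0.881 CPM in WT (adjusted p = 0.458). Bcl11a, a repressor of fetal globin known from human red cells, had 9.72 ± 0.817 CPM in CF libraries, against 11.3 ± 1.64 CPM in WT. Zfpm1, the cofactor of GATA proteins, was the most abundant of the factors named by rule, at 82.4 ± 20.6 CPM in CF libraries, against 68.3 ± 15.5 CPM in WT.

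Among 16 genes of red cell receptors, chaperones and cytosolic proteins, 10 were tested, 3 with higher and 7 with lower means in CF. None passed the edgeR test, while 3 had an unadjusted p under 0.05, 1 higher and 2 lower in CF. Of all 16941 tested loci, 2566 had such a p. Bpgm, the bisphosphoglycerate mutase that tunes oxygen release from hemoglobin, had 21.1 ± 4.42 CPM in CF libraries, against 32.7 ± 3.86 CPM in WT, without overlap (log2 fold change −0.63, SE 0.16, adjusted p = 0.118). The share of all tested loci without overlap in this direction was 3.91%. Tmcc2 had 3.26 ± 1.11 CPM in CF libraries, against 5.35 ± 2.02 CPM in WT (log2 fold change −0.71, adjusted p = 0.329). Blvrb, a biliverdin reductase, had a higher mean in CF, at 17.2 ± 1.48 CPM in CF libraries, against 13.3 ± 2.3 CPM in WT (log2 fold change 0.38, adjusted p = 0.263). Tfrc, the transferrin receptor, which dividing gut cells also express, had 169 ± 48.6 CPM in CF libraries, against 126 ± 10.6 CPM in WT (adjusted p = 0.336). Ahsp, the chaperone of free alpha chains, was below the filter with 19 fragments over the CF libraries and 30 over the WT libraries, and the erythropoietin receptor gene Epor had 20 and 34 in CF and WT.

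**Figure D3:**
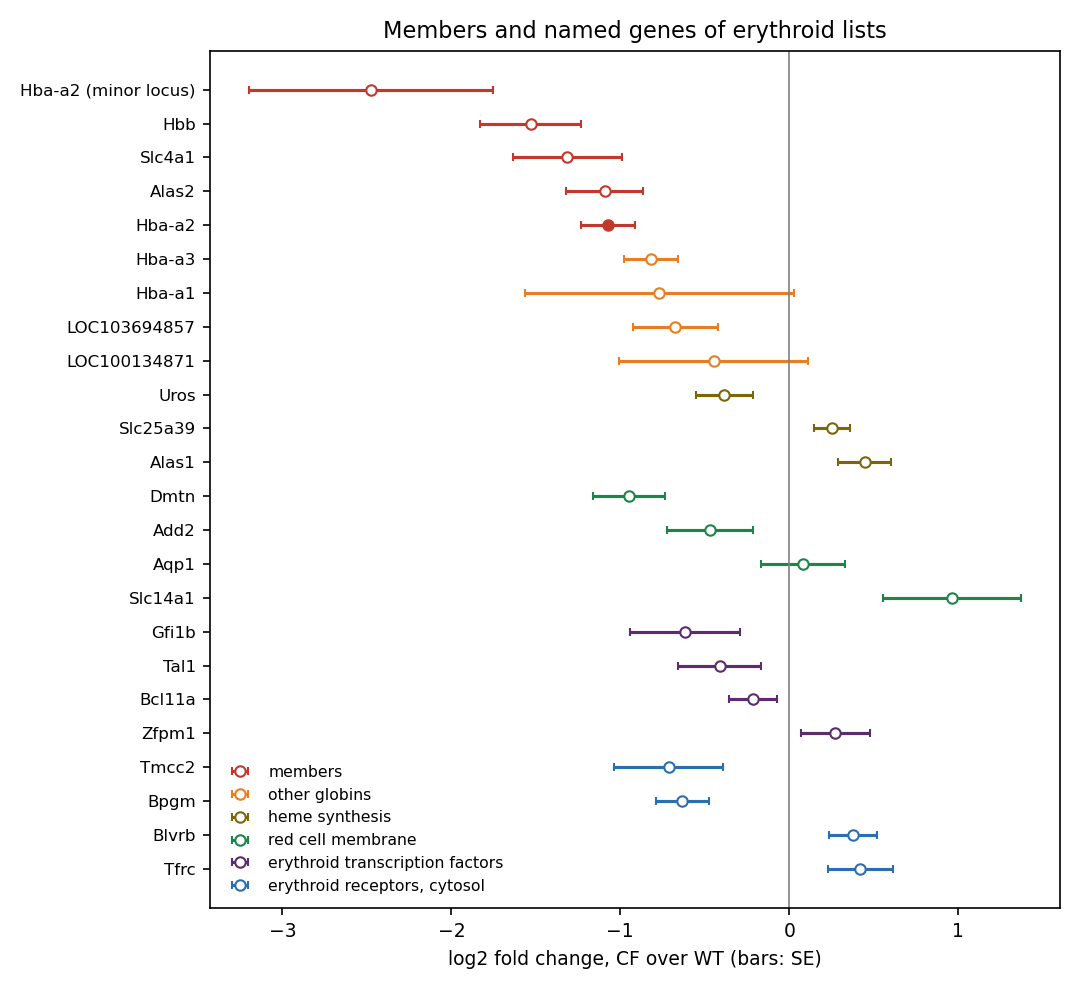
Log2 fold change (CF over WT, bars are SE) of the loci of the 4 members, the other tested globins and the genes named by rule in 4 lists related to red cells. The filled point passed the test over all loci, which was Hba-a2 at −1.07, and open points did not. Members and globins lie left of 0, while the other lists lie on both sides. The minor Hba-a2 locus passed the filter on low counts through WT libraries only.

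Genes that handle heme, hemoglobin and iron were next. Of 11 listed, 9 were tested, with 4 higher and 5 lower means in CF. None passed the edgeR test, and 0 had an unadjusted p under 0.05. The ferritin gene Fth1 varied widely, at 1528 ± 595 CPM in CF libraries, against 2057 ± 581 CPM in WT (log2 fold change −0.43, adjusted p = 0.506). The iron exporter gene Slc40a1 had 12.4 ± 6.61 CPM in CF libraries, against 18.8 ± 1.83 CPM in WT (adjusted p = 0.406). The heme transporter gene Slc48a1 had 15.9 ± 1.08 CPM in CF libraries, against 18.3 ± 1.56 CPM in WT (adjusted p = 0.426). Ftl1, at 1.87 ± 0.277 CPM in CF libraries, against 1.29 ± 0.296 CPM in WT, did not pass (adjusted p = 0.353). The globins of other tissues, Mb of muscle, Cygb and Ngb, had log2 fold changes of −0.13, −0.24 and −0.06 with adjusted p-values of 0.828, 0.409 and 0.942.

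Most markers of vessel endothelium had lower means in CF too. Of 15 tested endothelial genes 14 had lower means in CF, 7 with an unadjusted p under 0.05 and none past the adjusted test. Their median log2 fold change was −0.35. Among all tested loci 50.8% had a lower mean in CF, and 7.21% did so at an unadjusted p under 0.05. Vwf, Esam and Egfl7 were close to 0 (log2 fold changes −0.03, −0.05 and −0.02), and Lyve1 had a higher mean (0.20). Emcn had 10.6 ± 1.81 CPM in CF libraries, against 17.3 ± 1.61 CPM in WT (log2 fold change −0.71, adjusted p = 0.0809). Kdr had 22.4 ± 4.57 CPM in CF libraries, against 35.9 ± 5.25 CPM in WT (−0.68, adjusted p = 0.106), and Cdh5 had 29.8 ± 8.60 CPM in CF libraries, against 45.5 ± 5.71 CPM in WT (−0.61, adjusted p = 0.183). The 15 genes, among which Plvap was the most abundant at 93.5 ± 20.8 CPM in CF libraries, against 114 ± 18.2 CPM in WT, summed to 315 to 497 CPM in CF libraries, against 378 to 508 CPM in WT, and these ranges overlapped. The mean gene-centred log2 CPM of the vessel genes was 0.22, −0.39, −0.24 and −0.29 in CF libraries 0 to 3, against 0.26, 0.27, 0.24 and −0.08 in WT libraries 0 to 3. That of the members was −0.45, −0.73, −0.45 and −0.71 in CF libraries 0 to 3, against 0.04, 0.92, 0.89 and 0.48 in WT libraries 0 to 3. Vessel genes were thus low in CF libraries 1 to 3 and high in WT libraries 0 to 2, with CF library 0 in the WT range and WT library 3 between. The part of vessel content in the members' difference was not tested. For pericytes and smooth muscle, means went both ways, and none of 6 tested genes passed. In CF 3 had lower means, with log2 fold changes of −0.39 for Pdgfrb, −0.38 for Rgs5 and −0.35 for Notch3. The other 3 had higher means, at 0.30 for Cspg4, 0.14 for Myh11 and 0.12 for Acta2. The sum of the 6 genes, most of it Myh11, was 2761 to 3529 CPM in CF libraries, against 1989 to 3173 CPM in WT.

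Markers of other blood cells were few. Of 12 platelet and megakaryocyte loci 3 were tested. Pf4, the platelet factor, was at 2.49 ± 0.498 CPM in CF libraries, against 2.50 ± 0.970 CPM in WT. Itga2b had 15.4 ± 8.22 CPM in CF libraries, against 19.8 ± 4.07 CPM in WT, and Itgb3 had 9.89 ± 1.31 CPM in CF libraries, against 12.6 ± 4.27 CPM in WT, with adjusted p-values of 0.678 and 0.474. The platelet genes Ppbp, Gp5, Gp6 and Tubb1 had 0 fragments in all 8 libraries. The list summed to 19.7 to 37.4 CPM in CF libraries, against 30.3 to 38.1 CPM in WT. The neutrophil list ran the other way, at 5.37 to 53.7 CPM in CF libraries, against 1.71 to 3.83 CPM in WT in sum. Its 3 tested genes had higher means in CF, with log2 fold changes of 2.52 for Csf3r, 3.06 for Fcnb and 4.06 for S100a9 and adjusted p-values of 0.101, 0.168 and 0.179. Without CF library 0 the log2 fold changes were 1.87 for Csf3r, 1.72 for Fcnb and 2.75 for S100a9. CF library 0 was the highest for this list and CF library 3 the next, while the mean gene-centred log2 CPM of the members was −0.45, −0.73, −0.45 and −0.71 in CF libraries 0 to 3.

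Immediate early, heat shock and hypoxia response genes were also compared. Of 11 tested immediate early and heat shock genes 11 had higher means in CF, and 1 passed, Junb (88.3 ± 9.50 CPM in CF libraries, against 40.1 ± 1.92 CPM in WT, adjusted p = 0.00147, edgeR). Over all 16941 tested loci, 50.8% had a lower mean in CF, and 23 passed as higher. Egr2 and Nr4a1 had log2 fold changes of 1.94 and 1.20 (adjusted p = 0.0564 and 0.0598). Jun, the most abundant of the others named, was at 69.3 ± 28.0 CPM in CF libraries, against 68.2 ± 19.0 CPM in WT (log2 fold change 0.02). The list summed to 383 to 479 CPM in CF libraries, against 223 to 328 CPM in WT. Its mean gene-centred log2 CPM was 0.63, 0.51, 0.29 and 0.48 in CF libraries 0 to 3, against −0.07, −0.54, −0.52 and −0.77 in WT libraries 0 to 3. Of 9 tested genes of the hypoxia response 7 had higher means in CF and none passed, with 4 at an unadjusted p under 0.05. Of all 16941 tested loci 2566 had an unadjusted p under 0.05, of which 1221 had lower means in CF. The glucose transporter gene Slc2a1, whose product also serves human red cells, had 35.7 ± 8.85 CPM in CF libraries, against 19.7 ± 2.34 CPM in WT (log2 fold change 0.86, adjusted p = 0.0756). Car9 and Ankrd37 had log2 fold changes of 1.13 and 1.15 (adjusted p = 0.162 and 0.193). Of the epithelial genes, Cdx1 had 98.6 ± 13.0 CPM in CF libraries, against 72.7 ± 7.31 CPM in WT (adjusted p = 0.151), and 7 of 9 had higher means in CF. Krt20 had 1665 ± 388 CPM in CF libraries, against 1132 ± 131 CPM in WT (adjusted p = 0.218) and Lct 943 ± 462 CPM in CF libraries, against 1339 ± 439 CPM in WT (adjusted p = 0.579). Apoa4, a lipid transport gene and the most abundant of the list, had 2998 ± 1638 CPM in CF libraries, against 3651 ± 1556 CPM in WT (adjusted p = 0.784). Ndrg1, of the hypoxia list, had 284 ± 87.9 CPM in CF libraries, against 284 ± 65.8 CPM in WT (adjusted p = 0.998). The part of any of these lists in the members' difference was not tested.

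**Figure D4:**
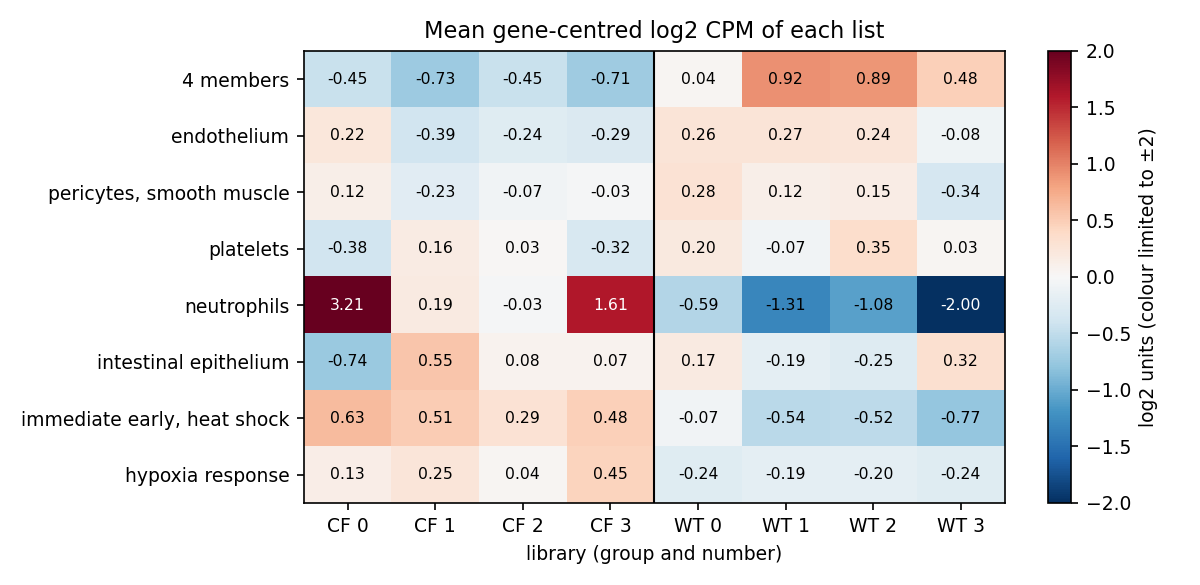
Mean over a list's tested genes of log2 CPM after each gene's mean over the 8 libraries was subtracted (colour and printed value, log2 units), with rows for the 4 members and 7 marker lists and columns for the CF libraries, then the WT libraries. The members were at −0.73 to −0.45 in CF and 0.04 to 0.92 in WT, and endothelium reached 0.22 in CF library 0.

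Loci whose pattern was most like that of the members were sought by Pearson's r between their log2 CPM and the mean gene-centred log2 CPM of the 4 members, over 8 libraries and 12079 named loci with a mean of at least 1 CPM. The 6 closest were Pstk (r = 0.976), Rab3a (0.967), Col24a1 (0.967), Hba-a3 (0.965), Fap (0.955) and Fgf9 (0.955). All 6 had lower means in CF, with log2 fold changes of −0.37 to −0.82, and none passed the test (adjusted p = 0.0689 to 0.288). After each group's mean was subtracted, the 6 closest were Nxpe1 (r = 0.973), Mrpl49 (0.965), Abi3 (0.962), Nckap1l (0.955), Tstd3 (0.954) and Ivns1abp (0.951). These included Mrpl49 and Tstd3, whose r over the 8 libraries without that subtraction was 0.0809 and 0.0519. With 8 points and this many loci, high values of r are a description of these libraries.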

How the data were processed

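Stranded mRNA sequencing of small intestine was done by the authors. Per the submitters' processing notes the tools included Cuffdiff, StringTie, STAR 2.3.1z, cutadapt and bcl2fastq, with build Rnor_6.0. Their settings are unknown from the sources used here. Per the file headers, the deposited estimated counts are raw fragments per locus and library (5.99% fractional, rounded here), and the deposited FPKM values were scaled by the authors between libraries and by length. The table names libraries by group and a number from 0 to 3 while titles run from 1 to 4, so groups are known but single titles are not. Another 2 columns, of rescaled fragments, were left aside.

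Loci passing filterByExpr (minimum count 10, minimum total 15) were scaled by TMM and tested for CF over WT with edgeR 4.0.16 (robust quasi-likelihood, Benjamini-Hochberg over 16941 loci, threshold 0.05). SE is the log2 fold change over the square root of F. Alternatives used limma 3.58.1 and DESeq2 1.42.0 in R 4.3.3. Log2 CPM had a prior count of 2. On simulated counts for CF over WT at 16941 loci the test recovered 10.4% of 1.5-fold, 61.2% of 2-fold and 83.3% of 4-fold changes, and 5 of 108 calls were false. The simulated counts were drawn independently for each locus and library, without shifts shared by many loci. In the real data some CF libraries stood apart on the first principal component, so these rates may not carry over.

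The members and lists were chosen with earlier results of these data known. Genes named were the members, other globin loci with fragments, in each of 13 other lists the 3 tested members with the smallest p and the most abundant one, and the 6 loci most alike by each of 2 measures. Klf1, Gata1, Rhag, Ahsp, Epor and the platelet genes at 0 were named after their values were seen.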

Additional observations from a re-analysis of the deposited data

Results flagged for a closer look

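In groups of 4 libraries, the highest or lowest library stood far from the other 3 in 8 of 138 groups of values examined, by Dixon's test for 4 values. Chance flags about 1 in 20 groups. None of the 4 members was among them. LOC100134871, a beta-like globin locus, was at 18.8 CPM in CF library 2, against 7.28 to 9.07 CPM in the other CF libraries. Fcnb, a neutrophil precursor gene, was at 13.2 CPM in CF library 0, against 1.22 to 3.04 CPM in the others of its group. Pf4 was at 3.96 CPM in WT library 2, against 1.98 to 2.07 CPM, and Ngb at 0.702 CPM in WT library 1, against 0.885 to 0.913 CPM. The smooth muscle gene Myh11 was at 1301 CPM in WT library 3, against 2050 to 2102 CPM, and Ndrg1 at 382 CPM in WT library 0, against 239 to 260 CPM. Among the loci most like the members, Pstk was at 35.1 CPM in CF library 2, against 30.1 to 30.5 CPM, and Tstd3 at 3.22 CPM in CF library 1, against 4.19 to 4.39 CPM.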

How the results depend on the processing

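In all alternatives run, the 4 members kept a lower mean in CF. Log2 differences were −1.19 to −0.89 for Hba-a2, −1.76 to −1.30 for Hbb, −1.18 to −0.63 for Alas2 and −1.47 to −0.23 for Slc4a1. The ends −0.63 and −0.23 were on log2(FPKM + 1). There the added 1 is large beside the mean FPKM of Alas2 (0.943 in CF, 1.99 in WT) and of Slc4a1 (0.132 in CF, 0.330 in WT). It narrows the difference, so these ends understate the fold change. On log2(FPKM + 0.1) the values were −1.03 for Alas2 and −0.86 for Slc4a1. The cause of changes in a call was not tested. Hba-a2 was not past the threshold with limma-voom (−1.06, adjusted p = 0.0535), on log2(FPKM + 1) (−1.04), on log2(FPKM + 0.1) (−1.05), with alpha copies summed (−0.89) or with the library number as a replicate block (−1.07, adjusted p = 0.0816). With 1 library left out it ranged from −1.19 to −0.97. Hbb passed with DESeq2 (−1.52, adjusted p = 1.34e-05), with beta copies summed (−1.31) and without WT library 0. With 1 library left out it ranged from −1.76 to −1.30. Alas2 passed with no low-count filter (−1.05, adjusted p = 0.0187) and with DESeq2 (−1.08, adjusted p = 0.00550). Slc4a1 passed in none of its 17 alternatives (adjusted p = 0.0502 to 0.514).

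Of all loci, 28 were called, against 17 with total count scaling, 553 with no low-count filter, 566 with DESeq2, 17 with limma-voom, 12 on log2(FPKM + 1), 15 on log2(FPKM + 0.1) and 11 with the replicate block, and 5 to 136 with 1 library left out (136 when CF library 0 was dropped, 77 for CF library 2, 5 for WT library 1 and for WT library 2, and 6 for WT library 3). Among listed loci 2 were called, against 17 with no filter and 1 to 10 with 1 library left out. Same-numbered CF and WT libraries had deviations from their group means that correlated at −0.106 to 0.163. Differently numbered ones correlated at −0.146 to 0.188. With 4 libraries per group these values cannot decide whether the numbers pair libraries. The log2 ratio of Hbb to Slc4a1 differed by −0.18 between CF and WT, and by −0.40 to 0.029 with 1 library left out.

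Log2 fold changes near 0 changed sign for 4 genes under other settings. Pf4 was at 0.024 with no filter, 0.0086 with limma-voom, 0.049 on log2(FPKM + 1), 0.046 on log2(FPKM + 0.1) and 0.033 with the replicate block. Ndrg1 was at −0.096 with total count scaling, −0.044 with limma-voom, −0.081 on log2(FPKM + 1), −0.082 on log2(FPKM + 0.1) and −0.039 with the block. In the same 5 settings Jun was at −0.076, −0.016, −0.061, −0.064 and −0.017. Mrpl49 was at −0.016 with total count scaling. With 1 library left out, ranges spanned 0 for LOC100134871 (−0.86 to 0.023), Ngb (−0.17 to 0.040), Aqp1 (−0.039 to 0.26), Pf4 (−0.14 to 0.30), Myh11 (−0.00067 to 0.23), Ndrg1 (−0.11 to 0.21) and Jun (−0.28 to 0.21). Alas2 had 29 to 107 fragments per library and Slc4a1 13 to 60, which limits their precision.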
